A study of Mus musculus with 2 samples.

Results

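Agap1, Agap2, Agap3, Acap2 and Adap2 encode GTPase-activating proteins of Arf small GTPases that work on endosomal membranes. They were taken by gene symbol from the authors' list of GAPs and GEFs, which switch small GTPases off and on; this regulator table holds 374 probe sets and 168 genes with an ID of their own. The 5 genes account for 11 of these probe sets: 4 for Agap1, 2 each for Agap3, Acap2 and Adap2, and 1 for Agap2. The cells were a conditionally immortalized mouse podocyte line, measured on Affymetrix murine genome arrays, with 1 array for differentiated and 1 for undifferentiated cells. Differentiated cells had been moved to 37 °C in 5% serum, without interferon gamma, for at least 10 days, and were growth arrested. Undifferentiated cells were kept at 33 °C on collagen I in the presence of interferon gamma. The growth-permissive medium is given as 10% serum with 100 U/ml of interferon gamma in the protocol of the differentiated sample. The line came from a wild-type mouse carrying the Immorto transgene, a thermolabile large T antigen under an interferon-inducible promoter, so temperature, interferon, serum and cell division differ together between the groups.

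Arf proteins recruit coats and lipid-modifying enzymes to membranes when bound to GTP, and Arf GAPs end that state by stimulating GTP hydrolysis through a zinc finger domain. Arf6 acts at the plasma membrane and on recycling endosomes, where it shapes cortical actin and the return of internalised receptors. Podocytes, the epithelial cells that cover glomerular capillaries with interlocking foot processes, depend on both, since nephrin and other proteins of the slit diaphragm are taken up and recycled. ACAP2 is a GAP of Arf6 and binds active Rab35. The AGAP proteins join an Arf GAP domain to a GTPase-like domain; AGAP1 binds the adaptor AP-3. ADAP2 carries paired PH domains that bind phosphoinositides.

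RefSeq promoters (GRCm38.p6), each with 250 bases before and 50 after the annotated start, were found for all 5 genes. The promoters of Acap2 and Agap1 are shown 5′ to 3′ on the strand of the gene. Among the 5 genes, Acap2 held the highest single difference in both data tables described below, and Agap1 had the most probe sets. Capitals mark the GC box GGGCGG, a motif bound by Sp factors, on either strand. The Acap2 window is chr16:31201189-31201488 on the minus strand and the Agap1 window is chr1:89454561-89454860 on the plus strand.
Acap2: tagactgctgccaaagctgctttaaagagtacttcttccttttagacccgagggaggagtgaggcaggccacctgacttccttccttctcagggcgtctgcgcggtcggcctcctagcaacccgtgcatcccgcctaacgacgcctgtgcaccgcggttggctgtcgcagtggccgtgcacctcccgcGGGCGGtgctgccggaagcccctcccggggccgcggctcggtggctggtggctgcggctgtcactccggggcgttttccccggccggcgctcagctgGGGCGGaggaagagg
Agap1: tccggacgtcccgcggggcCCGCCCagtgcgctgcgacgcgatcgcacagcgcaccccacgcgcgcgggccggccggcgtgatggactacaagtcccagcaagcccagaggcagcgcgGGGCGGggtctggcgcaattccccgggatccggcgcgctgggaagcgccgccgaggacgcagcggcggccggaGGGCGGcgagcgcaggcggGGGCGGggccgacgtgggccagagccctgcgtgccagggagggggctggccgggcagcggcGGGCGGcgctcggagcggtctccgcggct

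The Acap2 promoter was 67.7% G and C with 28 CpG dinucleotides, and the Agap1 promoter was 80.0% G and C with 50 CpG dinucleotides. The medians over 32851 promoters of the same length were 52.7% and 7. Acap2 held 2 GC boxes, at -62 and 35 from the start at position 0, and Agap1 held 5. All 5 genes had at least 1 GC box, a motif in 35.7% of all promoters. The CCAAT box (CCAAT) was found in Agap2 alone, against 37.4% of all promoters. Because interferon gamma and temperature differed between the groups, the gamma-activated sequence TTCNNNGAA and the heat shock element GAANNTTC were searched too, with the E box CACGTG. None of the 3 was in any of the 5 windows, against 8.30%, 7.86% and 7.15% of all promoters, counting both strands. A match is a stretch of letters and not a measured binding site, and a window without one says nothing of the factor.

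Signals come from 2 deposited tables. For each group the regulator table holds a signal, its standard error and a detection call, while an array-wide table without gene names holds 1 signal per array for 45037 probe sets. The undifferentiated signals of both tables were the same for 374 of 374 probe sets within 0.005 signal units, while the differentiated signals were the same for 0 of 374. Where the second differentiated column comes from is unknown, so each member has 2 differentiated signals and 1 undifferentiated signal. Comparisons in the 2 tables therefore share the undifferentiated array. Calls of the regulator table were present for 293 probe sets in differentiated and 284 in undifferentiated cells. On the arrays of the array-wide table, the ratio of 3′ to 5′ signal for Gapdh was 3.77 in differentiated and 0.868 in undifferentiated cells, and for beta-actin it was 1.54 and 1.09 in the same order; its part in the differences below was not tested. Podocyte identity was not analysed here, because none of 29 marker genes of podocytes and other kidney or immune cells, 9 of them of podocytes, was among the named probe sets. A single array per group allows no test across samples, so differences are described by size. The standard error (model SE) is read as covering the probes of 1 array alone.

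Of the 11 probe sets, 7 were present in both groups, 2 in undifferentiated cells alone and 2 in neither group. Acap2 stood highest among the genes, with both probe sets higher in differentiated cells of the regulator table under each scaling tried. The 3 detected Agap1 probe sets and Agap3 1423910_at were between 1.25-fold and 1.55-fold higher as deposited. All 4 lay below 0 when the medians of the groups were set equal, which put the table's own median log2 difference at -0.50. The same 4 lay between 0.07 and 0.37 with equal 75th percentiles and between 0 and 0.26 after quantile normalization. Agap2 and Adap2 were called present at most in undifferentiated cells. In bulk RNA, more cells with a transcript and more transcript per cell cannot be told apart. As deposited, the table's own median log2 difference was 0.16. Setting the medians equal moved it by -0.66, setting the 75th percentiles equal by -0.26 and quantile normalization by -0.16, so differences are also given relative to that median.

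**Figure D1:**
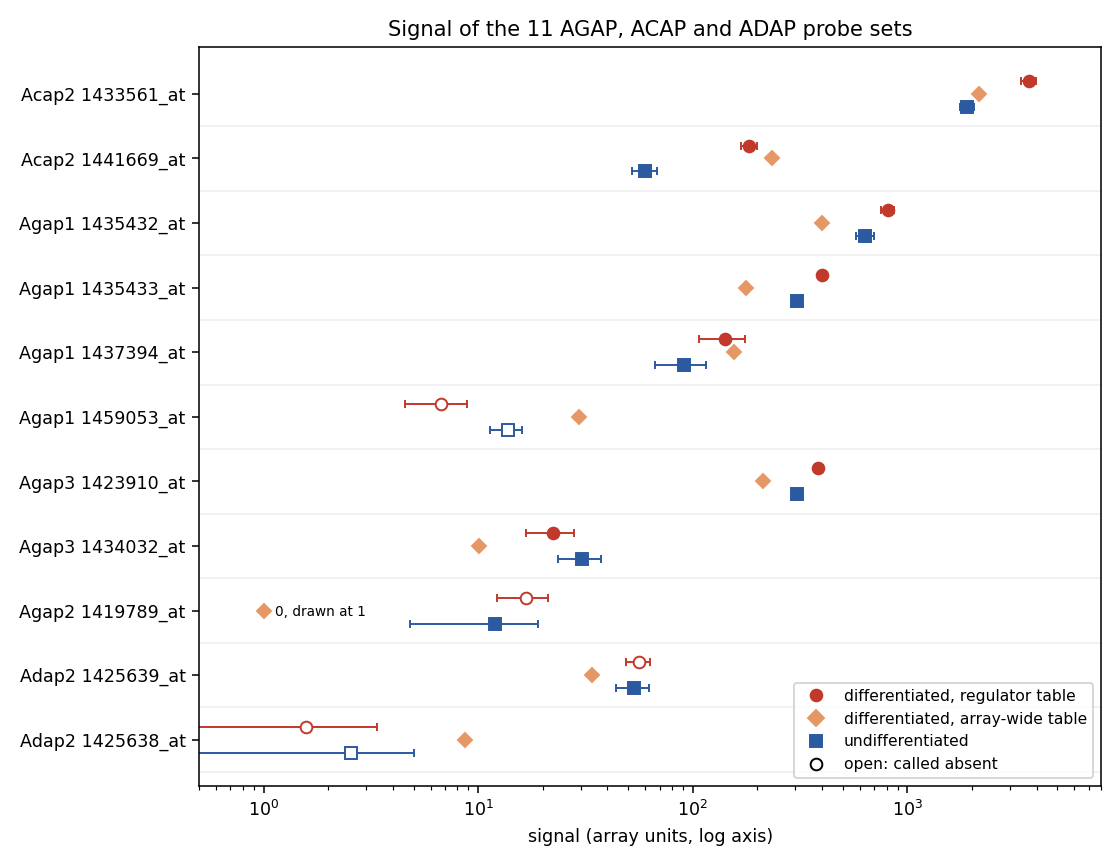
Signal of each of the 11 probe sets on a log axis in array units, with 1 value per group; circles are differentiated cells and squares undifferentiated cells in the regulator table, with model SE as bars and open symbols where the call was absent, and diamonds are differentiated cells in the array-wide table. Both circles of Acap2 lie right of the squares (3682 against 1905 and 184 against 60.2, as deposited), and the diamonds of the first 2 Agap1 probe sets lie left of the squares while their circles lie right.

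Acap2 was read by 2 probe sets built on different source sequences and array clusters. Probe set 1433561_at had a signal of 3682 ± 280.4 in differentiated cells of the regulator table and 2152 in those of the array-wide table, against 1905 ± 151 in undifferentiated cells (model SE). Both differentiated signals lay above the undifferentiated one. In the regulator table the signal was 1.93-fold higher in differentiated cells, a log2 difference of 0.95 ± 0.16 (model SE), or 0.79 above the table's median. In the array-wide table after quantile normalization it was 1.36-fold higher (log2 difference 0.44), and -0.38 with equal medians. There it was 0.25 with equal 75th percentiles and 0.18 as deposited.

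The other Acap2 probe set, 1441669_at, had a signal of 184 ± 15.6 in differentiated cells of the regulator table and 235 in those of the array-wide table, against 60.2 ± 7.85 in undifferentiated cells. Both differentiated signals again lay above the undifferentiated one. The undifferentiated signal, called present, lay little above 51.5, the level that 95% of absent-called probe sets in undifferentiated cells stay below. The log2 difference was 1.61 ± 0.22 in the regulator table, 3.05-fold, and 1.68 in the array-wide table, 3.20-fold. Relative to all measured probe sets it lay 1.45 above the median of the first table and 1.70 above that of the second. Under the scalings it ranged down to 0.95 with equal medians in the regulator table and 0.94 with a floor at the 60th percentile in the array-wide table, both under 2-fold, and up to 2.04 with equal 75th percentiles in the array-wide table. The 2 probe sets of Acap2 thus pointed the same way in the regulator table but differed in size by 0.66 on the log2 scale there and by 1.23 in the array-wide table.

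Agap1, whose GTPase-like protein acts with AP-3, had 4 probe sets. Of these, 1435432_at and 1435433_at were designed from the same source sequence, so they are not independent readings. Probe set 1435432_at had 811 ± 56.4 in differentiated cells of the regulator table and 401 in those of the array-wide table, against 638 ± 58.8 in undifferentiated cells. Probe set 1435433_at had 400.4 ± 9.34 and 178 in the same differentiated columns, against 305 ± 9.50 in undifferentiated cells. For both, the undifferentiated signal lay between the 2 differentiated ones. Their log2 differences were 0.35 ± 0.17 and 0.39 ± 0.06 in the regulator table, and -0.52 and -0.86 in the array-wide table. Direction for this stretch of Agap1 therefore depended on which differentiated column was used. With equal medians it was below 0 in the regulator table too (-0.31 and -0.27). The 2 differences there were 0.09 and 0.13 with equal 75th percentiles, and 0.26 and 0.21 after quantile normalization.

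Another Agap1 probe set, 1437394_at, had 141 ± 33.7 in differentiated cells of the regulator table and 156 in those of the array-wide table, against 91.1 ± 24.4 in undifferentiated cells. Both differentiated signals were higher. Its log2 difference was 0.63 ± 0.52 in the regulator table and 0.47 in the array-wide table, and the first lay within 2 model SE of 0. Its model SE was 23.9% of the signal in differentiated and 26.8% in undifferentiated cells, against a median of 10.1% over present probe sets of each group. With equal medians the difference was -0.03 in the regulator table and 0.23 in the array-wide table. The last Agap1 probe set, 1459053_at, was called absent in both groups, at 6.69 in differentiated and 13.7 in undifferentiated cells, with 29.55 in the differentiated column of the array-wide table. No fold is given for it.

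Agap3, also named Crag or MRIP-1 in mouse annotation, takes part in receptor trafficking at synapses of rat neurons. Its probe set 1423910_at read 385 ± 13.0 in differentiated cells of the regulator table and 212 in those of the array-wide table, against 307 ± 5.21 in undifferentiated cells. As for the 2 Agap1 probe sets above, the undifferentiated signal lay between the differentiated ones. The log2 difference was 0.33 ± 0.05 in the regulator table, 0.17 above that table's median, and -0.59 in the array-wide table. With equal medians the first became -0.34.

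The other Agap3 probe set, 1434032_at, had 22.3 ± 5.62 in differentiated cells of the regulator table and 10.0 in those of the array-wide table, against 30.5 ± 6.90 in undifferentiated cells. Both differentiated signals were lower, and each signal lay under the level that 95% of absent-called probe sets stay below, 68.3 in differentiated and 51.5 in undifferentiated cells. The log2 difference of -0.45 ± 0.49 in the regulator table was within 1 model SE of 0. In the array-wide table the normalized differentiated signal lay under the detection floor of 37.6, so the log2 difference there, -0.04 after quantile normalization, is measured to that floor. Lowering the floor to the 20th percentile made it -1.43.

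Agap2, known as PIKE for its link to phosphoinositide 3-kinase, had 1 probe set, 1419789_at. It read 16.6 ± 4.40 and was called absent in differentiated cells of the regulator table, was listed at 0 in those of the array-wide table, and read 11.9 ± 7.12 with a present call in undifferentiated cells. The present call thus went with the lower of the 2 signals in that table and with a model SE of 59.7% of the signal. After normalization both arrays of the array-wide table lay under the floor, so no difference is given.

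Adap2 had 2 probe sets built on the same source sequence, and they differed in detection. Probe set 1425639_at read 56.0 ± 7.18 (absent) in differentiated cells of the regulator table and 33.9 in those of the array-wide table, against 53.1 ± 9.27 (present) in undifferentiated cells. Its signals in the regulator table lay closer to each other than 1 model SE, although the calls differed. In the array-wide table the differentiated signal lay under the floor. The log2 difference to the floor of each scaling was -0.77 after quantile normalization and with equal medians, -0.46 as deposited and -0.42 with equal 75th percentiles. Lowering the floor to the 20th percentile after quantile normalization made it -1.31. Probe set 1425638_at was absent in both groups, at 1.57 in differentiated and 2.55 in undifferentiated cells, and 8.70 in the differentiated column of the array-wide table.

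**Figure D2:**
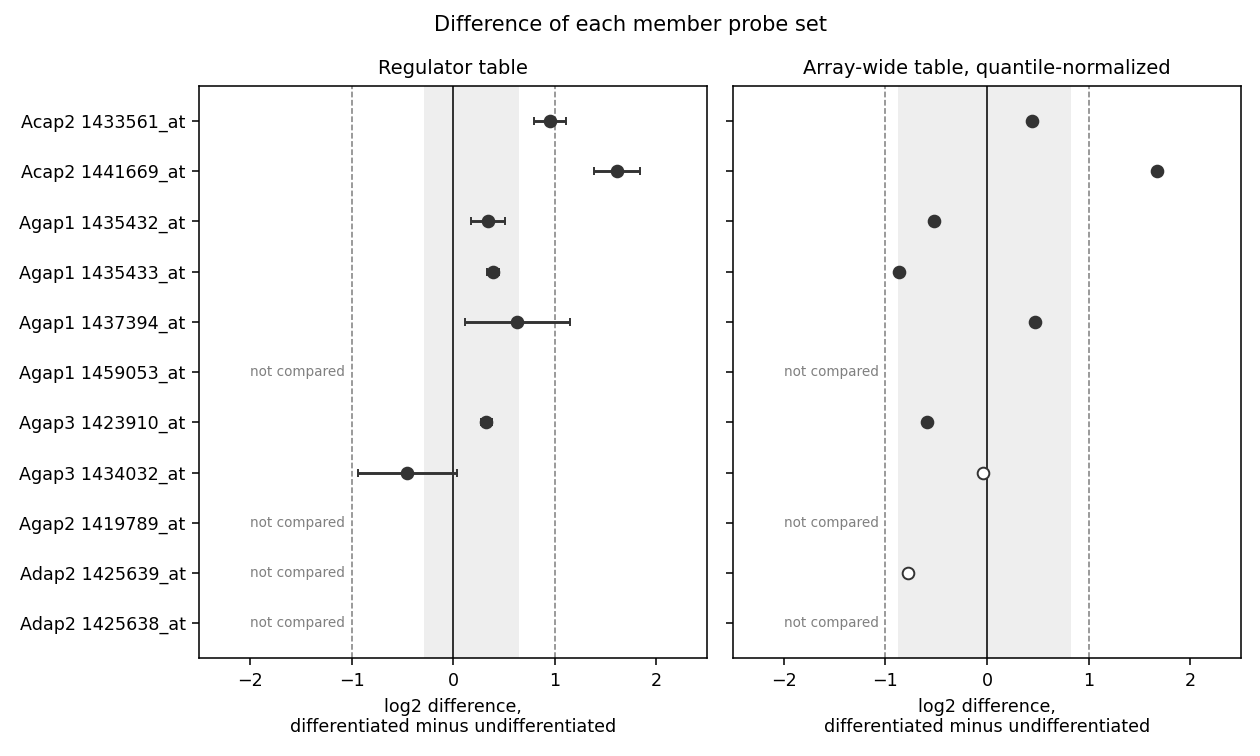
Log2 difference, differentiated minus undifferentiated, of each probe set in the regulator table (left, present in both groups, bars are model SE) and in the quantile-normalized array-wide table (right, open circles have 1 signal under the floor). Shading spans the middle quartiles of all measured probe sets, -0.28 to 0.64 on the left and -0.87 to 0.82 on the right. Both Acap2 points lie right of it on the left and 1 of them on the right. Equal medians put the Agap1 points and Agap3 1423910_at below 0 on the left, where the table's median was then -0.50. The same scaling put Acap2 1433561_at below 0 on the right, where the array's median was then -0.38.

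Counted over the members, 1 of the 9 probe sets present in at least 1 group was at least 2-fold higher in differentiated cells of the regulator table, Acap2 1441669_at, beside 17.6% of the 313 measured probe sets of that table. None was at least 2-fold lower, beside 7.67%. At 1.5-fold, 3 of 9 were higher, both Acap2 probe sets and Agap1 1437394_at, beside 26.8%, and 0 were lower, beside 13.1%. The counts are therefore near the table's background. The median log2 difference of the 9 was 0.39, against 0.16 over the whole table. Of the 7 probe sets present in both groups, 5 differed from 0 by more than 2 model SE, beside 53.0% of the 264 such probe sets of the table: both of Acap2, the pair from 1 Agap1 source sequence and Agap3 1423910_at. Measured from the table's median, 4 did, beside 52.7%, without Agap1 1435432_at.

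Above the floor on at least 1 array of the array-wide table were 8 of the 11 probe sets. Of these, 1 was at least 2-fold higher, Acap2 1441669_at again, beside 21.1% of 31831 measured probe sets, and 0 were at least 2-fold lower, beside 22.0%. At 1.5-fold, 1 was higher, beside 30.6%, and 3 were lower, beside 31.9%: Agap1 1435433_at, Agap3 1423910_at and, through its distance to the floor, Adap2 1425639_at. These counts are after quantile normalization. The median of the 8 was -0.28, against -0.03 over the array. With equal medians the count of members at least 2-fold lower was 3. The share of all probe sets was not counted under that scaling, which moved their median by -0.35.

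**Figure D3:**
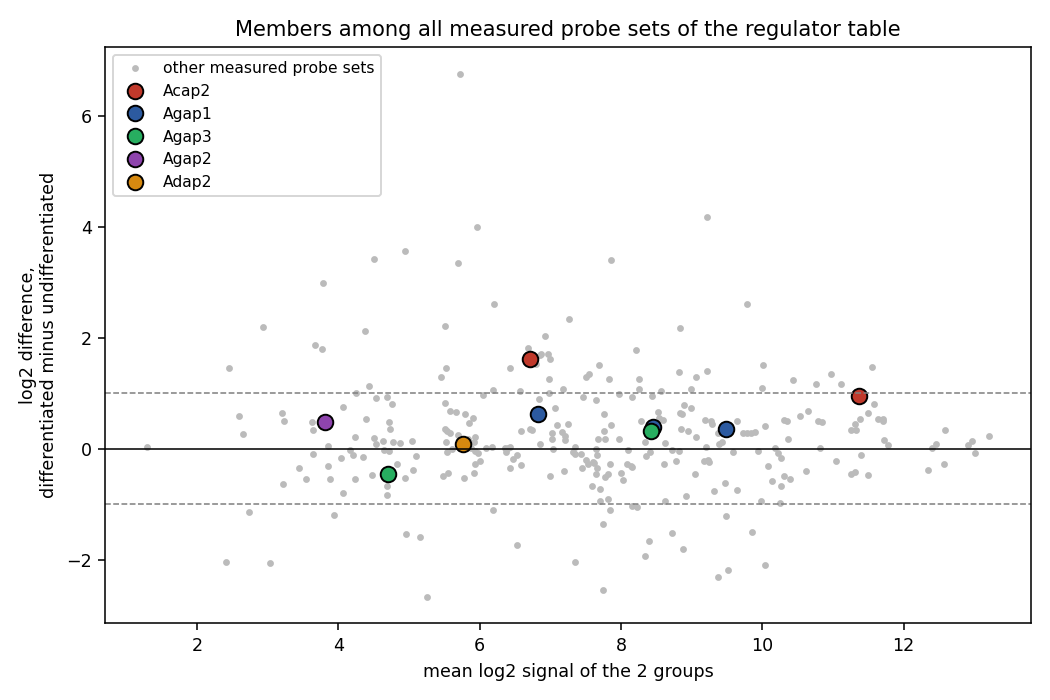
Log2 difference, differentiated minus undifferentiated, against mean log2 signal for the 313 measured probe sets of the regulator table, with the 9 measured probe sets of Acap2, Agap1, Agap3, Agap2 and Adap2 in colour and dashed lines at 2-fold. Acap2 1441669_at at 1.61 is the member above the upper line (0.95, under it, with equal medians), and the other 8 lie between the lines.

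The 2 differentiated columns were set against each other directly. Over the 7 members present in both groups, the array-wide table's differentiated signal was lower than the regulator table's for 5 probe sets and higher for 2. Their ratio ran from 0.444 for Agap1 1435433_at to 1.28 for Acap2 1441669_at. The median size of the log2 ratio was 0.86 for these members and 0.98 for the 264 probe sets of the table present in both groups. For 4 of the 7 members the differentiated columns lay further apart than the groups did in the regulator table. Neither this count nor that of lower and higher signals was made over the 264 probe sets, so neither is read as particular to the members.

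**Figure D4:**
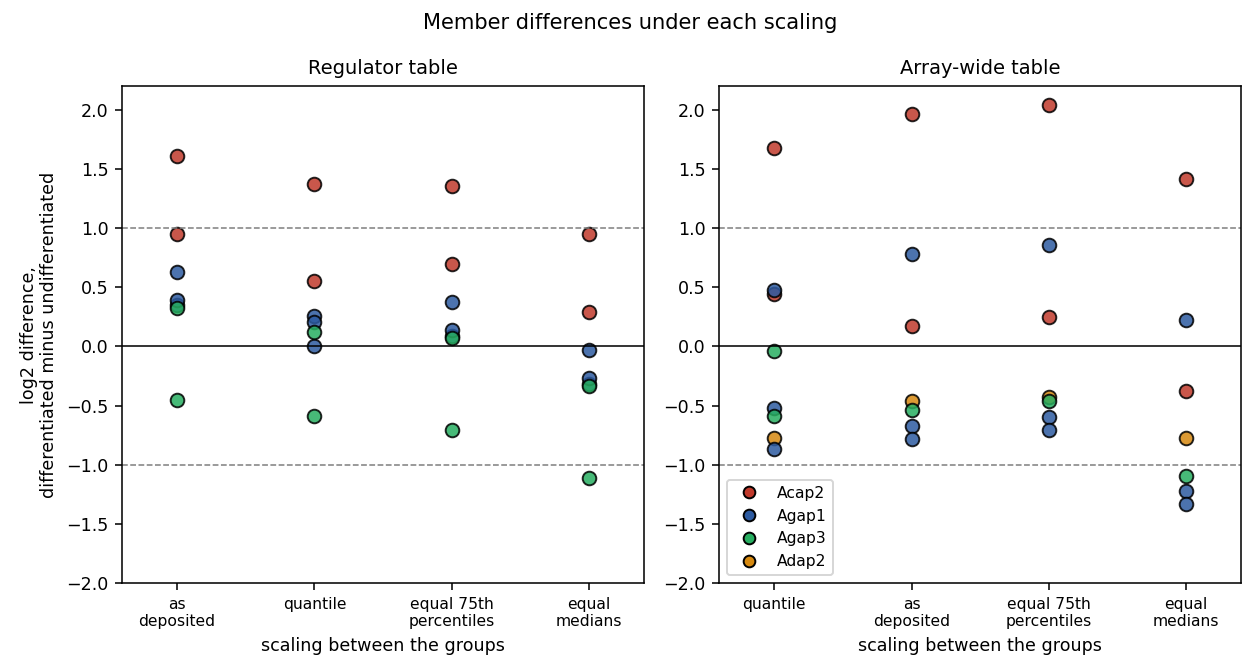
Log2 difference, differentiated minus undifferentiated, of each compared member probe set under 4 scalings of the groups, in the regulator table (left) and the array-wide table (right, with probe sets above the floor), dashed lines at 2-fold. Acap2 points stay above 0 on the left and reach 0.29 with equal medians, where all Agap1 and Agap3 points lie below 0; on the right 1 Acap2 point is at -0.38 with equal medians.

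Among the other Arf GAPs, 12 of 18 listed genes were in the table, with 20 of 23 probe sets measured. Past 2-fold in the regulator table, 3 of the 20 were higher in differentiated cells, all of Arap2, beside 17.6% of its measured probe sets. Of the 20, 0 were lower, beside 7.67%. Their median was -0.16, against 0.39 for the 9 measured AGAP, ACAP and ADAP probe sets and 0.16 for the table. Arap2, a GAP of Arf6, had its highest probe set at 2174 in differentiated cells of the regulator table and 1222 in those of the array-wide table, against 356 in undifferentiated cells. The log2 differences of this probe set, 1452291_at, were 2.61 ± 0.10 and 1.93. The other 2 Arap2 probe sets had 2.17 ± 0.14 (1436895_at) and 2.34 ± 0.25 (1456337_at) in the regulator table but 0.42 and -1.10 in the array-wide table. The -1.10 is a distance to the floor, with deposited signals of 41.95 in differentiated and 68.35 in undifferentiated cells. The probe sets of Arap2 thus had no common direction in the array-wide table. Asap1, a GAP that acts at podosomes and focal adhesions, was lowest in the regulator table (-0.95 ± 0.17) through 1425572_a_at, at 724 in differentiated and 1397 in undifferentiated cells. Another Asap1 probe set, 1425573_a_at, was lowest in the array-wide table, at -4.27, with 50.3 in differentiated and 827 in undifferentiated cells, but had -0.76 ± 0.06 in the regulator table. The array-wide table had 18 probe sets of the other Arf GAPs measured, with a median of -0.34, against -0.03 over the array. Of the 18, 1 was at least 2-fold higher, beside 21.1% of all measured probe sets, and 7 were lower, beside 22.0%. Among the 7, the values of Arap1 1428064_at, Arap2 1456337_at and Git2 1432160_at are distances to the floor. No test sets the AGAP, ACAP and ADAP genes apart from the other Arf GAPs.

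**Figure D5:**
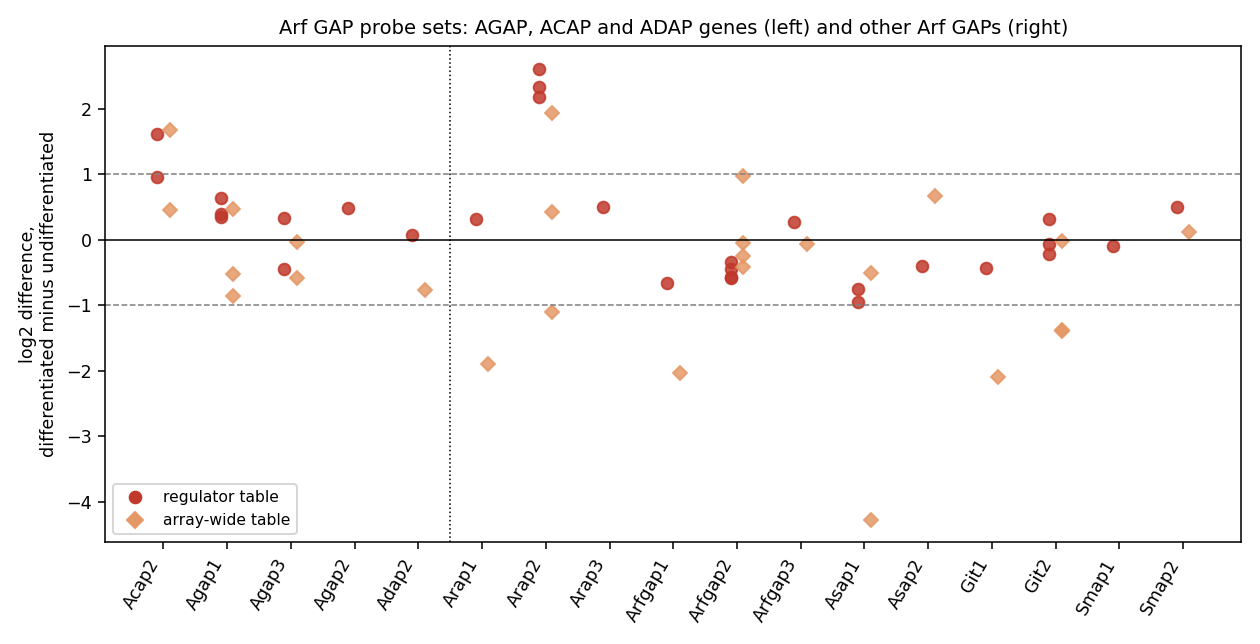
Log2 difference, differentiated minus undifferentiated, of every measured probe set of 17 Arf GAP genes, with the AGAP, ACAP and ADAP genes left of the dotted line; circles are the regulator table, diamonds the quantile-normalized array-wide table, and Agap2, Adap2 and Smap1 circles rest on an absent call in differentiated cells. Acap2 and Arap2 have circles near or above 1 as deposited (0.29 and 0.95 for Acap2 with equal medians), and diamonds of 1 gene spread up to the range of Asap1, from -4.27 to -0.50.

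The genes that load Arf with GTP were not among the named probe sets: 0 of 15 listed Arf GEFs were in the table. Of 15 Arf and Arl GTPases and partners, 1 was there, Arl2bp, a binding partner of Arl2. Its 2 probe sets had log2 differences of 0.33 ± 0.12 and 0.64 ± 0.03 in the regulator table, and of 0.40 and -2.40 in the array-wide table. Of 13 endosomal Rab regulators 7 were in the table. Of their 17 probe sets measured in the regulator table, 3 were at least 2-fold higher, beside 17.6% of that table. They were 1 each of Tbc1d2b (2.60 ± 0.61), Als2cl (1.52 ± 0.29) and Rabgap1 (1.34 ± 0.22). Of the 17, 3 were lower, all of Usp6nl, beside 7.67%. Usp6nl, a GAP of Rab5, reached -2.04 ± 0.35. The array-wide table had 3 of 18 at least 2-fold higher, beside 21.1% of all measured probe sets, and 7 lower, beside 22.0%. Tbc1d2b was highest there (2.29) and Rin1, a GEF of Rab5, lowest (-3.47), though that Rin1 probe set had 0.51 ± 0.02 in the regulator table. Because 1 array per group gives 1 difference per probe set, genes with a like pattern were not ranked.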

How the data were processed

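RNA of 1 differentiated and 1 undifferentiated sample was measured on Affymetrix murine genome arrays, and samples were grouped by title. The authors deposited intensity values on a linear scale, and calls and standard errors for 374 probe sets; dChip is named per the labels' protocol of the differentiated sample, with version and normalization not given in the sources used here. Per the labels, RNA was isolated with different kits in the groups, which cannot be told apart from group.

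Regulator table signals were not rescaled; values under 1 were set to 1 and log2 was taken. Where a probe set was present in 1 group alone, the other group's signal was raised to at least the lowest present signal of that group, 2.60 in differentiated and 4.91 in undifferentiated cells. The deposited standard error is read as a model error over the probes of 1 array, and the model SE of a log2 difference was propagated from both groups. The array-wide table, without 64 control probe sets, was quantile-normalized on log2 signals and floored at the 40th percentile, 37.6 units. Printed signals are as deposited. Python 3.11.15 and numpy 2.4.6 were used, and the functions were tested on simulated data. The number of arrays, 1 per group, limits the precision, and no p-value is given. Probe sets of several genes (8) were left out of lists. Members, lists (other Arf GAPs, Arf GEFs, Arf and Arl GTPases and partners, endosomal Rab regulators, cell type markers) and rules were chosen with earlier results of these data known. Every member probe set is named; of other lists, the highest and lowest in either table and those past 2-fold in the same direction in both. Alternatives were other scalings, floors, a pseudocount of 32, a threshold of 1.5-fold, other call rules and the other differentiated column.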

Additional observations from a re-analysis of the deposited data

How the results depend on the processing

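Leaving out a replicate could not be done with 1 array per group. No paired analysis was possible because each group has 1 sample. Spread between replicates is unknown, so moves were read against the model SE; for values of the array-wide table the same probe set's model SE of the regulator table stood in.

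For the members in the regulator table (1 higher and 0 lower past 2-fold, median 0.39), equal medians gave 0 higher and 1 lower. Their median was then -0.27, against -0.50 over the whole table. Equal 75th percentiles made the members' median 0.13, quantile normalization 0.21, and it was -0.65 with the array-wide table's differentiated column, which gave 2 lower. A 1.5-fold threshold gave 3 higher, beside 26.8% of the table's measured probe sets. Using all 11 probe sets whatever the call gave 1 lower. In the array-wide table (1 higher, 0 lower, median -0.28), raising the floor to the 60th percentile left 0 higher, and lowering it to the 20th gave 2 lower. A 1.5-fold threshold gave 3 lower there, beside 31.9% of the array's measured probe sets. Equal medians gave 3 lower with a median of -0.77, against -0.38 over the array, and as deposited the median was -0.46. In either table, the share of all probe sets past 2-fold was counted at the main setting only. Of single member values, 24 of 42 in the regulator table and 16 of 35 in the array-wide table moved more than the model SE. The only member probe set past 2-fold at the main setting, Acap2 1441669_at, kept its sign in both tables under the alternatives run. With equal medians, differences under 2-fold changed sign for the detected Agap1 probe sets and Agap3 1423910_at in the regulator table. In the array-wide table Acap2 1433561_at did so, from 0.44 to -0.38.

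For the other Arf GAPs in the regulator table, equal medians gave 9 lower and a median of -0.82, equal 75th percentiles 2 and -0.41, and quantile normalization 1 and -0.36. The whole table's median was -0.50, -0.10 and 0 under these 3 scalings, and its share of lower probe sets under them was not counted. In the array-wide table equal medians gave the other Arf GAPs a median of -1.01, against -0.38 over the array. For Arl2bp the medians were -0.17, 0.23 and 0.26 in the first table under the same 3 scalings, and in the array-wide table -1.84 (equal medians), -1.20 (equal 75th percentiles) and -1.28 as deposited. For endosomal Rab regulators equal medians gave 1 higher and 5 lower, with a median of -0.21 against 0.45; equal 75th percentiles made it 0.20 and quantile normalization 0.14. Their array-wide table median was -0.31 with equal 75th percentiles and -0.35 as deposited, against -0.77. Shifts by a constant follow from the scaling itself; the cause of the other moves was not tested. Signals within the range of absent-called probe sets limit Agap2, Agap3 1434032_at and, in differentiated cells, Adap2.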
